A study of Mus musculus with 86 samples.

Results

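Obstructed mouse kidneys were compared with sham-operated mouse kidneys in the vehicle arm of a study of MERTK, a receptor tyrosine kinase of the TAM family (Tyro3, Axl and Mertk). The comparison was defined by its columns in the kidney expression table of the inhibitor experiment, so that 4 libraries of kidneys with unilateral ureteral obstruction (UUO) and DMSO were set against 3 libraries of kidneys with sham surgery and DMSO, or 7 of the 86 samples in the series. All genes of the table were described, and no measured value was used to choose the libraries. The labels gave both groups a wild-type genotype and a DMSO injection, so that surgery was the only labelled difference between them. Differences that the labels do not give, such as the tissue taken with each kidney, are not excluded. DMSO was the solvent in which the MERTK inhibitor UNC569 was given to other animals. The labels used here gave neither the age of the mice nor the time after surgery. The wider series also held liver and lung injury models and Mertk knockout mice.

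Unilateral ureteral obstruction is a surgical model in which a ligated ureter raises the pressure in a kidney and stops its urine flow. The tubule epithelium is stretched and injured, leukocytes enter the tissue, and fibroblasts and pericytes of the interstitium turn into matrix-producing myofibroblasts. The proximal tubule, which makes up most of the kidney cortex, reabsorbs filtered sugar, phosphate, amino acids and proteins and burns mainly fatty acids, and it is known to lose transporters and mitochondrial enzymes when injured. Sham surgery exposes the kidney without tying the ureter.

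The values were FPKM, the number of sequenced fragments of a gene divided by its length and by the size of the library, for 38277 genes. Both groups expressed defining genes of kidney: Umod, the thick limb glycoprotein uromodulin, stood at 232 FPKM or more in each library, and Nphs1, which encodes the slit diaphragm protein nephrin of podocytes, at 1.55 FPKM or more. Between 13947 and 14161 genes reached 1 FPKM in UUO libraries, against 13042 to 13208 genes in sham libraries. The 20 most abundant genes held 16.0 to 19.7% of all FPKM in UUO libraries and 32.7 to 42.3% in sham libraries. FPKM summed to between 406950 and 453454 in UUO libraries and to between 830382 and 885381 in sham libraries, which is no measure of RNA amount. Across genes, the log2(FPKM + 1) values of libraries correlated at 0.957 to 0.972 within UUO, at 0.963 to 0.972 within sham and at 0.766 to 0.845 between the groups. The files gave no read counts for these libraries, so their depth is unknown, and no label tied a library to an animal, so p-values measure the spread between libraries only.

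Several libraries stood apart from others of their group. Sham libraries 0 and 2 held transcripts of hepatocyte genes, with Alb, which encodes serum albumin, at 0.455, 0.283, 0.569 and 1.22 FPKM in the UUO libraries and 56.6, 1.57 and 56.2 FPKM in the sham libraries. Sham library 1 and UUO library 3 held more adipocyte transcripts than the others, with the adipocyte hormone gene Adipoq at 1.82, 2.16, 1.51 and 16.8 FPKM in the UUO libraries and 0, 6.74 and 0 FPKM in the sham libraries. Sham library 1 also had the highest haemoglobin level, with Hbb-bs at 132, 158, 138 and 100.4 FPKM in the UUO libraries and 374, 885 and 315 FPKM in the sham libraries. UUO library 2 was highest in immediate early genes and in renin. Results that involve these genes are given with these values beside them, and the counts were recomputed without sham library 1 and UUO library 3. That recount keeps sham libraries 0 and 2, so it does not bear on the hepatocyte transcripts. Values of single libraries are given in the order UUO 0 to 3 and sham 0 to 2, the numbers of the columns in the table, which name the group and not the labelled sample.

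Obstruction came with a difference in more than 1 in 2 expressed genes. Genes with at least 1 FPKM in 3 or more of the kidney libraries were tested, 15338 in all. Of these, 4560 (29.7%) were higher and 3957 (25.8%) lower in UUO than in sham kidneys, or 55.5% in either direction. The threshold was a Benjamini-Hochberg adjusted p under 0.05 in limma's moderated test on log2(FPKM + 1). The remaining 6821 did not pass. The changes were large for many genes: 654 were higher and 761 lower by at least 2 on the log2 scale, while 2132 of the higher and 1712 of the lower genes differed by less than 1. The median log2 difference was 0.08 over all tested genes, 1.04 over the higher and -1.11 over the lower genes. The 4 UUO values lay above the 3 sham values in 30.8% of tested genes and below them in 26.4%. Groups without overlap were therefore common. Many genes named below were picked for a small p, so their separate groups describe the values and add no evidence. Without sham library 1 and UUO library 3, 3891 genes were higher and 3520 lower.

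**Figure D1:**
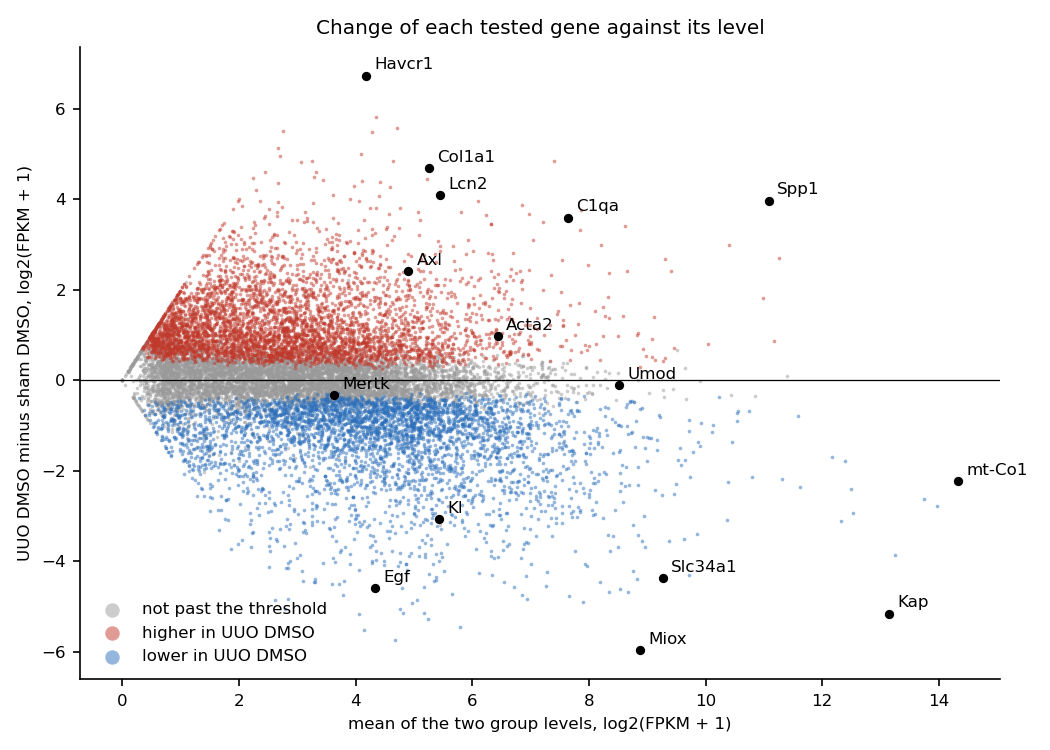
Each point is 1 of 15338 tested genes. The horizontal axis is the mean of the UUO DMSO and sham DMSO group levels and the vertical axis is their log2 difference, both on log2(FPKM + 1). Red genes were higher and blue genes lower at a limma adjusted p under 0.05, and grey genes did not pass. Havcr1 lies highest at 6.72 and Miox lowest at -5.97, while Umod, at -0.11, and Mertk, at -0.33, lie near 0.

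The 15 largest rises were taken from called genes with a mean of at least 10 FPKM in either group and groups that did not overlap. They included genes of injured tubule, of matrix and of leukocytes. Havcr1, which encodes the proximal tubule injury marker KIM-1, had the largest, with 211, 189, 127 and 232 FPKM in UUO kidneys, against 0.644, 1.32 and 0.437 FPKM in sham kidneys (log2 difference 6.72 ± 0.25 (SE), adjusted p = 5.12e-12). Aoc1, the diamine oxidase gene, followed with 135, 149.9, 156 and 170.1 FPKM in the UUO libraries and 1.69, 1.74 and 1.79 FPKM in the sham libraries (log2 difference 5.80 ± 0.21 (SE), adjusted p = 5.12e-12). Both genes were near 1 or 2 FPKM in sham kidneys and high in all 4 UUO kidneys. Col12a1, encoding a collagen that decorates fibrils, had 221, 239.6, 187 and 104 FPKM with UUO and 1.74, 3.54 and 3.49 FPKM with sham surgery, and UUO library 3 had the lowest UUO value (log2 difference 5.56 ± 0.70 (SE), adjusted p = 3.23e-06). Ltbp2, encoding a latent TGF-β binding protein of elastic microfibrils, had 35.7, 34.9, 34.4 and 35.8 FPKM in UUO kidneys, against 0.24, 0.22 and 0.0811 FPKM in sham kidneys (log2 difference 4.94 ± 0.23 (SE), adjusted p = 7.41e-11), with UUO libraries within about 1 FPKM of each other. The other rises included those of Sprr2f, Sprr2a3, Ubd, Thy1, Ear2, Lyz2, Rgs16, Col1a1, Serpina10 and Lyz1. Sprr2a3, a gene of the cornified envelope of squamous epithelium, had 106, 102, 156 and 161 FPKM in the UUO libraries and 1.84, 2.83 and 1.23 FPKM in the sham libraries (log2 difference 5.48 ± 0.98 (SE), adjusted p = 1.35e-04). Its neighbour Sprr2f was listed at 0 in all 3 sham libraries and at 34.3, 37.7, 51.5 and 59.2 FPKM in UUO libraries. Sprr2, Ear and lysozyme genes have near-identical copies in the mouse, and reads could have been split among those copies, so their single-gene values are uncertain.

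The 15 largest falls, taken by the same rule from called genes whose groups did not overlap, included many genes of proximal tubule transport and metabolism. Miox, which encodes the kidney's myo-inositol oxygenase, had 149, 174, 14.6 and 28.9 FPKM in UUO kidneys, against 3014, 4135 and 4089 FPKM in sham kidneys (log2 difference -5.97 ± 0.74 (SE), adjusted p = 2.63e-06). Kap, the androgen-regulated kidney protein of the proximal tubule and among the most abundant transcripts of sham kidneys, had 3789, 3063, 489 and 919 FPKM in the UUO libraries and 56531, 55879 and 49582 FPKM in the sham libraries (log2 difference -5.16 ± 0.47 (SE), adjusted p = 9.16e-08). Slc7a13, which encodes an aspartate, glutamate and cystine transporter subunit of the late proximal tubule, had 20.8, 15.9, 1.97 and 3.54 FPKM with UUO and 413, 369 and 315 FPKM with sham surgery (log2 difference -5.44 ± 0.51 (SE), adjusted p = 1.13e-07). In these 3 genes UUO libraries 2 and 3 were lower than UUO libraries 0 and 1. The others were Gm853, Slc22a7, Ces1f, Azgp1, Aspdh, Cyp2a4, Slc22a8, 9030619P08Rik, Dnase1, Nat8f1, Cyp2d12 and Eci3, with log2 differences between -5.75 and -4.86. Slc22a7 and Slc22a8 encode basolateral organic anion transporters, and Ces1f, Cyp2a4, Cyp2d12 and Nat8f1 belong to drug- and lipid-handling enzyme families with close copies, so that their single-gene values are uncertain.

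Genes of proximal tubule transport and the brush border were lower in UUO kidneys almost without exception. Of 30 tested members 28 fell and none rose, where 25.8% of all tested genes fell. The list's median log2 difference was -2.89, where that of all genes was 0.08. Slc34a1, the main phosphate cotransporter, had 214, 236, 62.6 and 104 FPKM in UUO kidneys, against 2628, 2599.9 and 3219.8 FPKM in sham kidneys (log2 difference -4.37 ± 0.48 (SE), adjusted p = 6.61e-07). Lrp2, which encodes the endocytic receptor megalin, had 10.8, 9.91, 4.87 and 7.97 FPKM in the UUO libraries and 97.3, 76.6 and 102 FPKM in the sham libraries (log2 difference -3.35 ± 0.30 (SE), adjusted p = 7.81e-08). Its partner Cubn, encoding cubilin, had 3.85, 3.52, 1.52 and 3.01 FPKM with UUO and 28.7, 21.2 and 26.8 FPKM with sham surgery (log2 difference -2.77 ± 0.23 (SE), adjusted p = 3.77e-08). Neither gene's groups overlapped, and UUO library 2 was the lowest in each. Anpep, the brush border aminopeptidase, fell with a log2 difference of -1.38 ± 0.11 (SE). The 2 members that did not pass were Mme and Slc7a9. Mme, encoding the peptidase neprilysin, had 8.501, 5.95, 8.42 and 10.4 FPKM in the UUO libraries and 7.73, 6.05 and 5.48 FPKM in the sham libraries and overlapping groups (adjusted p = 0.215). Slc7a9, encoding the light subunit of the renal cystine transporter, had 8.71, 11.6, 10.3 and 8.12 FPKM in the UUO libraries and 15.2, 17.2 and 18.05 FPKM in the sham libraries (adjusted p = 0.092). Its groups did not overlap, and it passed as lower when the 7 libraries were fitted without the UNC569 libraries (adjusted p = 0.00264). The list's mean log2(FPKM + 1) was 5.02, 5.04, 3.75 and 4.22 in the UUO libraries and 7.51, 7.43 and 7.65 in the sham libraries, so that UUO libraries 0 and 1 kept higher levels than libraries 2 and 3. In bulk tissue, fewer cells of a type and less RNA per cell cannot be told apart.

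The enzymes of fatty acid oxidation were lower in UUO kidneys together with the tubule transporters. Of 30 tested members 28 fell and none rose (median log2 difference -1.61), where 25.8% of all tested genes fell and 29.7% rose. Acadm, the medium-chain acyl-CoA dehydrogenase of mitochondria, had 101, 78.9, 43.1 and 56.5 FPKM in UUO kidneys, against 508, 517 and 522 FPKM in sham kidneys (log2 difference -2.94 ± 0.21 (SE), adjusted p = 6.80e-09). Ppara, the nuclear receptor that drives this pathway, was low in both groups, with 0.759, 0.737, 0.537 and 0.548 FPKM with UUO and 1.598, 3.83 and 2.27 FPKM with sham surgery (log2 difference -1.07 ± 0.32 (SE), adjusted p = 0.00864). Both genes had UUO values below every sham value, but the call of Ppara was lost without sham library 1 (adjusted p = 0.0583). The largest fall in the list was that of Ehhadh, the peroxisomal bifunctional enzyme, at -3.78. The smallest among those that passed was that of the carnitine carrier Slc25a20 at -0.49, which did not pass without sham library 2 (adjusted p = 0.106), UUO library 2 (0.0712) or UUO library 3 (0.0613).

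Respiratory chain genes encoded in the nucleus fell in UUO kidneys in 30 of 30 tested members (median -2.09), where 25.8% of all tested genes fell. Of 19 tested genes of the tricarboxylic acid cycle 18 fell (median -1.81). Atp5b, which encodes the catalytic β subunit of ATP synthase, had 519, 543, 353 and 425 FPKM in UUO kidneys, against 3785, 3861 and 4011 FPKM in sham kidneys (log2 difference -3.10 ± 0.20 (SE), adjusted p = 2.70e-09). Mdh1, encoding cytosolic malate dehydrogenase, had 65.5, 53.3, 38.7 and 55.7 FPKM in the UUO libraries and 351, 261 and 292 FPKM in the sham libraries (log2 difference -2.49 ± 0.16 (SE), adjusted p = 2.63e-09). In both genes the lowest sham value was several times the highest UUO value. Pck2, the mitochondrial PEP carboxykinase, was the member of the tricarboxylic acid list that rose, with 10.8, 12.3, 11.8 and 11.8 FPKM with UUO and 7.17, 6.90 and 5.69 FPKM with sham surgery (log2 difference 0.74 ± 0.14 (SE), adjusted p = 1.98e-04). Of 13 tested mitochondrially encoded genes 12 fell (median -2.65). mt-Co1, subunit 1 of cytochrome c oxidase, had 12490, 9388, 8205 and 8397 FPKM in the UUO libraries and 55548, 52363 and 30140 FPKM in the sham libraries (log2 difference -2.23 ± 0.29 (SE), adjusted p = 4.16e-06). Mitochondrially encoded transcripts made up 6.00 to 9.01% of the FPKM in UUO libraries and 14.3 to 26.9% in sham libraries, where sham library 2 had the lowest levels. mt-Co2, mt-Co3 and mt-Atp6 were listed at 251 FPKM or less in every library, far below mt-Co1, and mt-Atp8 was at 0 in UUO libraries 2 and 3 and in sham library 2. How reads of these neighbouring genes were counted is not given in the sources used here.

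Gluconeogenesis and fructose use, which in kidney are functions of the proximal tubule, fell in 11 of 12 tested genes (median -3.18), the exception being Fbp2 (-0.58, adjusted p = 0.0727, and 0.0214 in a fit of the 7 libraries alone). G6pc, the glucose-6-phosphatase that releases glucose, had 16.2, 15.5, 3.48 and 4.77 FPKM in UUO kidneys, against 225, 127 and 229.9 FPKM in sham kidneys (log2 difference -4.34 ± 0.48 (SE), adjusted p = 7.16e-07). Khk, the ketohexokinase that starts fructose breakdown, had 55.8, 63.7, 16.8 and 23.9 FPKM in the UUO libraries and 566, 725 and 759 FPKM in the sham libraries (log2 difference -4.25 ± 0.41 (SE), adjusted p = 1.62e-07). UUO values of both genes were below all sham values and lowest in UUO libraries 2 and 3. Of 18 tested glycolysis genes 9 fell and 5 rose, where 25.8% of all tested genes fell and 29.7% rose, so the number that rose was near the background. Gapdh, an enzyme shared by glycolysis and gluconeogenesis, had 717, 732, 465 and 575 FPKM with UUO and 3016, 2762 and 2991 FPKM with sham surgery (log2 difference -2.25 ± 0.17 (SE), adjusted p = 1.41e-08). The 5 rises were Hk2 (2.34), Hk3 (1.67), the lactate exporter Slc16a3 (1.79), Pfkfb3 (1.08) and Pfkp (0.67). Hexokinases trap glucose in the cell, and Pfkfb3 and Pfkp act at the phosphofructokinase step. Hk2 had 5.25, 5.85, 5.15 and 4.95 FPKM in UUO kidneys, against 0.288, 0.132 and 0.307 FPKM in sham kidneys, with all UUO libraries above all sham libraries (log2 difference 2.34 ± 0.31 (SE), adjusted p = 5.60e-06).

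Amino acid, glycine and NAD handling fell in 22 of 26 tested genes and rose in 1 (median -3.07). Of all tested genes 25.8% fell and 29.7% rose. Fah, which completes tyrosine breakdown, had 7.81, 6.02, 3.85 and 2.71 FPKM in UUO kidneys, against 76.5, 88.7 and 78.5 FPKM in sham kidneys (log2 difference -3.83 ± 0.23 (SE), adjusted p = 1.33e-09). The 1 gene that rose, Arg2, encoding mitochondrial arginase, had 10.6, 10.8, 9.80 and 11.1 FPKM in the UUO libraries and 0.29, 0.906 and 1.72 FPKM in the sham libraries (log2 difference 2.62 ± 0.19 (SE), adjusted p = 1.05e-08). The groups overlapped in neither. Cytochrome P450 and conjugation genes fell in 19 of 23 tested members and rose in 1 (median -3.13), with Ephx2, the soluble epoxide hydrolase, at -3.13 and Cyp7b1, an oxysterol hydroxylase, at -3.98. The gene that rose was Cyp27b1, the enzyme that makes active vitamin D, with 5.75, 7.63, 11.3 and 8.06 FPKM with UUO and 3.00, 1.25 and 4.44 FPKM with sham surgery (log2 difference 1.30 ± 0.36 (SE), adjusted p = 0.00529). The call was lost without sham library 1 and UUO library 3 (adjusted p = 0.0689). Cyp24a1, which breaks active vitamin D down, had 20.2, 16.5, 14.7 and 14.3 FPKM in the UUO libraries and 19.1, 9.35 and 17.3 FPKM in the sham libraries and did not pass (adjusted p = 0.647). Ugt1a2 showed how far single libraries could differ in this list, with 144 FPKM in sham library 0, 0 in sham library 1 and 1.54 in sham library 2, and it passed without sham library 1 (adjusted p = 0.0248).

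Distal nephron genes were lower in UUO kidneys with exceptions among their most typical markers. In the thick limb and distal convoluted tubule list, 15 of 20 tested members fell and 1 rose (median -1.69). Of all tested genes 25.8% fell and 29.7% rose. Egf, the growth factor precursor made by these segments, had 4.40, 5.02, 1.81 and 2.10 FPKM in UUO kidneys, against 87.7, 111 and 98.5 FPKM in sham kidneys (log2 difference -4.60 ± 0.25 (SE), adjusted p = 4.70e-10). Slc12a1, encoding the furosemide-sensitive NKCC2 cotransporter of the thick limb, had 18.4, 17.4, 16.5 and 31.8 FPKM in the UUO libraries and 99.2, 169 and 77.5 FPKM in the sham libraries (log2 difference -2.37 ± 0.25 (SE), adjusted p = 5.28e-07). Umod, the most abundant product of the same cells, had 406, 459.8, 232 and 348 FPKM with UUO and 323, 370.2 and 456 FPKM with sham surgery, and its groups overlapped (log2 difference -0.11 ± 0.44 (SE), adjusted p = 0.842). Thus Egf and Slc12a1 in UUO libraries lay below every sham library, while Umod in 1 UUO library lay below and in 1 above the whole sham range. Of the tight junction genes that shape magnesium and calcium reabsorption, Cldn19 rose (0.82, adjusted p = 0.028), Cldn16 did not pass (0.30, adjusted p = 0.344) and Cldn10 fell (-2.54). The call of Cldn19 was lost without sham library 0 (adjusted p = 0.0827), sham library 2 (0.0916), UUO library 0 (0.0515) or UUO library 1 (0.058). Pvalb, a calcium-binding protein of the distal convoluted tubule, was listed at 0 in all 4 UUO libraries and at 13.7, 8.88 and 15.1 FPKM in sham libraries.

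In the collecting duct list 13 of 18 tested members fell and none rose (median -1.44), where 25.8% of all tested genes fell. Aqp2, the vasopressin-regulated water channel of principal cells, had 58.4, 74.3, 7.52 and 13.3 FPKM in UUO kidneys, against 389, 724 and 580.4 FPKM in sham kidneys (log2 difference -4.33 ± 0.63 (SE), adjusted p = 1.54e-05). Avpr2, the vasopressin receptor gene, had 6.13, 6.75, 7.11 and 4.67 FPKM in the UUO libraries and 26.1, 40.4 and 36.5 FPKM in the sham libraries (log2 difference -2.29 ± 0.19 (SE), adjusted p = 3.40e-08). Every UUO library was below every sham library in both, and Aqp2 was lowest in UUO libraries 2 and 3. Rhcg, an ammonia channel, and Slc26a4, the pendrin anion exchanger of intercalated cells, fell by 2.84 and 2.72 on the log2 scale. Slc4a1, the anion exchanger of acid-secreting intercalated cells and of red cells, had a log2 difference of -2.88. Aqp6 and Atp6v1b1, also genes of intercalated cells, were among the 5 members that did not pass. Aqp6, an intracellular channel of these cells, had 27.2, 34.1, 23.5 and 13.5 FPKM with UUO and 22.9, 27.6 and 25.6 FPKM with sham surgery (adjusted p = 0.78). Atp6v1b1, a proton pump subunit, had 4.17, 7.56, 8.21 and 4.15 FPKM in the UUO libraries and 5.91, 9.36 and 11.2 FPKM in the sham libraries (adjusted p = 0.228).

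Among renal hormone genes, 5 rose and 11 fell of 23 tested, beside 29.7% and 25.8% of all tested genes. Kl, which encodes the co-receptor klotho, had 23.04, 19.6, 6.72 and 12.1 FPKM in UUO kidneys, against 158, 96.0 and 127 FPKM in sham kidneys (log2 difference -3.07 ± 0.35 (SE), adjusted p = 1.04e-06). Pth1r, the parathyroid hormone receptor, and Ace, angiotensin-converting enzyme, had log2 differences of -2.70 and -2.30. Edn1, the vasoconstrictor endothelin 1, had 12.4, 9.80, 6.20 and 10.1 FPKM in the UUO libraries and 1.69, 1.52 and 0.907 FPKM in the sham libraries (log2 difference 2.14 ± 0.19 (SE), adjusted p = 8.51e-08). Its receptor gene Ednra had 8.80, 7.33, 8.83 and 7.11 FPKM with UUO and 1.76, 1.14 and 0.882 FPKM with sham surgery (log2 difference 2.01 ± 0.33 (SE), adjusted p = 5.45e-05). The groups overlapped in none of these 5 genes, where 30.8% of all tested genes lay wholly above sham and 26.4% wholly below. Ren1, encoding renin, had 28.1, 32.3, 123 and 5.04 FPKM in UUO kidneys, against 17.3, 41.98 and 30.4 FPKM in sham kidneys (log2 difference 0.00 ± 0.69 (SE), adjusted p = 0.997). UUO library 2 had the highest and UUO library 3 the lowest value of all 7 libraries. Epo, encoding erythropoietin, was listed at 0 in all 4 UUO libraries and at 0.544, 0.321 and 0.142 FPKM in sham libraries, and was too low to be tested.

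**Figure D2:**
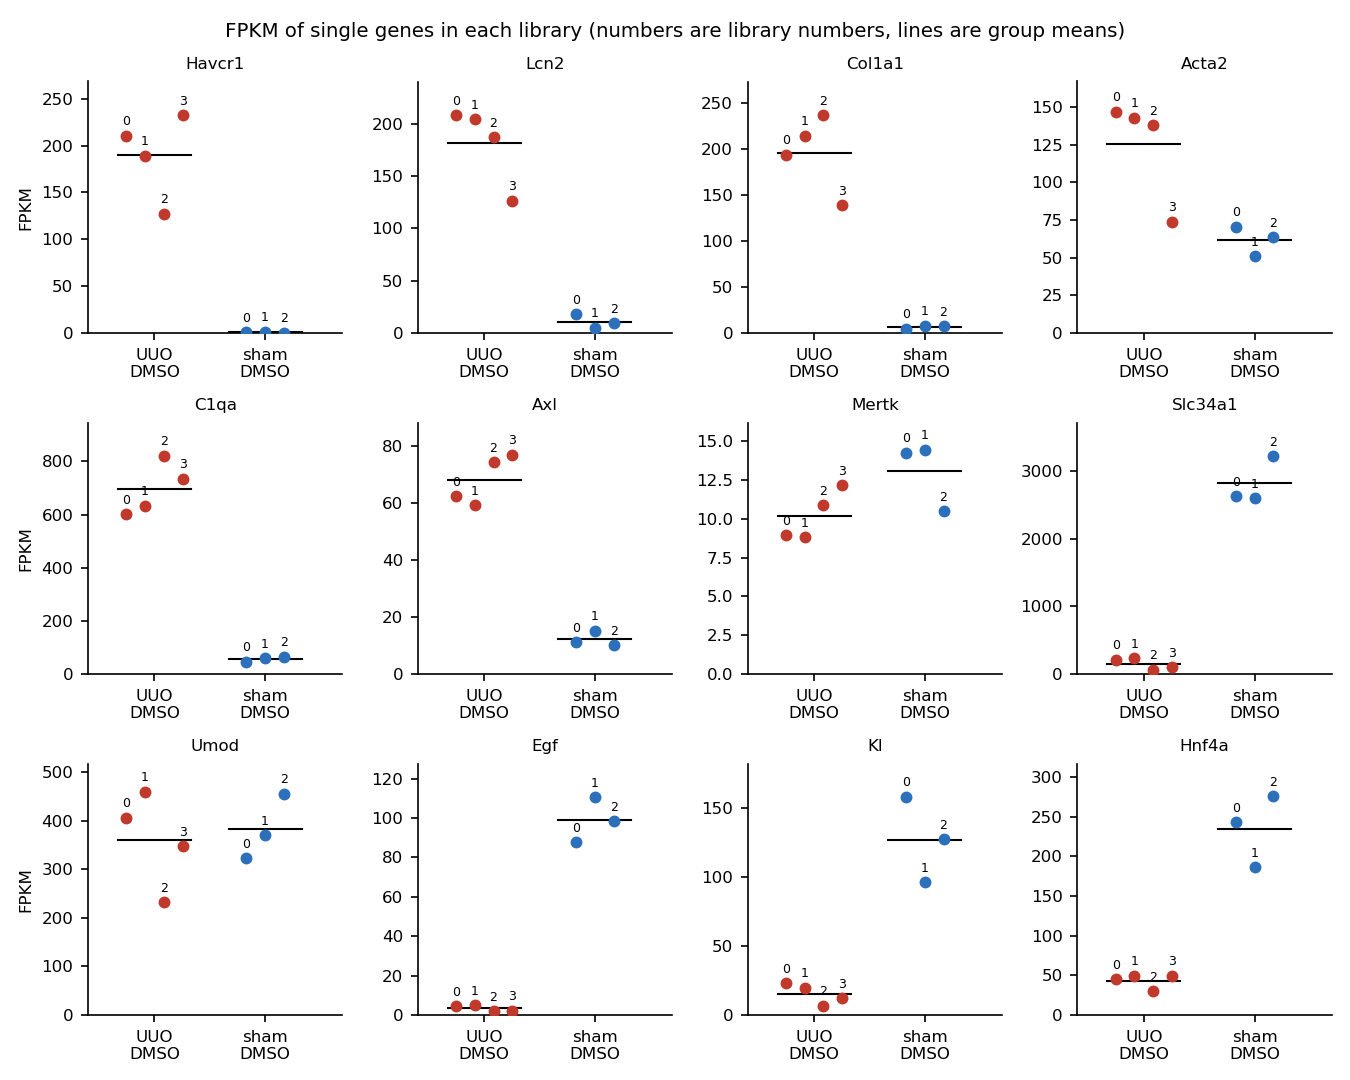
FPKM of 12 genes in each library, on linear axes that start at 0. UUO DMSO libraries (red, left) and sham DMSO libraries (blue, right) carry their library numbers, and lines are group means. Havcr1, Lcn2, Col1a1, C1qa and Axl separate upward and Slc34a1, Egf, Kl and Hnf4a downward, while Umod and Mertk overlap, and Acta2 in UUO library 3 (73.7 FPKM) lies close to sham library 0 (70.4 FPKM).

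Transcription factors of the nephron were lower in 9 and higher in 2 of 19 tested members (median -0.34), where 25.8% of all tested genes were lower and 29.7% higher. Hnf4a, which is required for the mature proximal tubule, had 45.1, 49.3, 30.1 and 49.6 FPKM in UUO kidneys, against 243, 186 and 276 FPKM in sham kidneys (log2 difference -2.41 ± 0.38 (SE), adjusted p = 3.59e-05). Runx1, a factor of blood cells that is also induced in injured epithelium, had 9.19, 6.80, 9.67 and 8.497 FPKM in the UUO libraries and 0.527, 0.68 and 0.44 FPKM in the sham libraries (log2 difference 2.62 ± 0.27 (SE), adjusted p = 4.03e-07). Both were non-overlapping between groups, where 26.4% of all tested genes lay wholly below sham and 30.8% wholly above. Pax2, a developmental factor of the nephron, had 22.2, 27.3, 30.4 and 22.2 FPKM with UUO and 13.3, 23.8 and 17.98 FPKM with sham surgery and did not pass (adjusted p = 0.0759), but did without sham library 1 (adjusted p = 0.0243).

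In the podocyte list 2 rose and 5 fell of 12 tested (median -0.17), where 29.7% of all tested genes rose and 25.8% fell. Tcf21, a transcription factor of podocytes that is also made by interstitial fibroblasts, had 154, 167, 217 and 192 FPKM in the UUO libraries and 27.4, 41.5 and 42.1 FPKM in the sham libraries (log2 difference 2.29 ± 0.29 (SE), adjusted p = 3.36e-06). Nphs1, encoding nephrin, had 2.65, 1.55, 4.79 and 3.75 FPKM with UUO and 5.15, 5.45 and 5.71 FPKM with sham surgery and was just past the threshold (adjusted p = 0.0438). In the endothelium list 4 rose and 4 fell of 16 tested (median 0.12), shares near the 29.7% and 25.8% of all tested genes. Pecam1 and Cdh5, junction genes of all endothelium, had log2 differences of 0.77 and 0.85, and Vwf, the clotting protein of larger vessels, had 2.65, 6.03, 12.2 and 5.32 FPKM in the UUO libraries and 2.17, 1.76 and 1.62 FPKM in the sham libraries (log2 difference 1.26 ± 0.43 (SE), adjusted p = 0.0201). Ehd3, a marker of the glomerular endothelium, had 15.6, 15.2, 16.3 and 15.6 FPKM in UUO kidneys, against 31.6, 26.9 and 34.7 FPKM in sham kidneys (log2 difference -0.94 ± 0.25 (SE), adjusted p = 0.00475). Kdr, the VEGF receptor 2, fell by 0.79. UUO values of Ehd3 lay close together and below all sham values, and Vwf was highest in UUO library 2. The call of Vwf was lost without sham library 1 (adjusted p = 0.0502), sham library 2 (0.0596) or UUO library 2 (0.0731), and that of Nphs1 without any 1 sham library or UUO library 0 or 1 (adjusted p of 0.074 to 0.149).

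Injury and repair genes of the tubule were high in every UUO kidney. Of 27 tested members 23 rose and 1 fell (median 2.55), where 29.7% of all tested genes rose. Lcn2, encoding the injury marker NGAL, had 208, 205, 187 and 127 FPKM in UUO kidneys, against 17.95, 5.07 and 9.36 FPKM in sham kidneys (log2 difference 4.08 ± 0.35 (SE), adjusted p = 4.16e-08). Spp1, which encodes the matrix protein osteopontin, was second only to mt-Co1 by mean level in UUO kidneys, with 10743, 8799, 5445 and 10517 FPKM in the UUO libraries and 540.5, 535 and 572 FPKM in the sham libraries (log2 difference 3.96 ± 0.20 (SE), adjusted p = 1.58e-10). Vcam1, an adhesion molecule that persists on tubule cells after incomplete repair, had 82.8, 61.1, 92.1 and 116 FPKM with UUO and 4.53, 4.38 and 3.74 FPKM with sham surgery (log2 difference 4.06 ± 0.23 (SE), adjusted p = 6.44e-10). Cd44, a hyaluronan receptor, and Krt20, a keratin of injured tubule and of urothelium, had log2 differences of 3.93 and 3.97. No UUO library overlapped with a sham library in these 5 genes, where 30.8% of all tested genes lay wholly above sham. Fibrinogen genes, which injured tubule cells are known to express, departed from the list. Fgb had 8.41, 5.96, 3.43 and 2.41 FPKM in UUO kidneys, against 39.2, 0.732 and 32.3 FPKM in sham kidneys (adjusted p = 0.177). Fga fell with a log2 difference of -0.92 (adjusted p = 0.0363). Both are also hepatocyte genes, and their high sham libraries were 0 and 2, the libraries with Alb transcripts. Without sham library 1 Fgb passed as lower (adjusted p = 7.99e-05), and Fga did not pass without sham library 0 (0.139), sham library 2 (0.157), UUO library 2 (0.114) or UUO library 3 (0.105).

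Urothelial genes, which mark the lining of the renal pelvis and ureter, rose in 10 of 10 tested members (median 2.48). Of all tested genes 29.7% rose. The basal keratin genes Krt5 and Krt14 led. Krt14 had 38.8, 51.3, 40.3 and 51.9 FPKM in UUO kidneys, against 0, 2.52 and 1.48 FPKM in sham kidneys (log2 difference 4.49 ± 0.43 (SE), adjusted p = 1.49e-07). Upk1b, a uroplakin of the urothelial surface, had 35.2, 29.4, 30.8 and 31.2 FPKM in the UUO libraries and 1.17, 6.55 and 0.937 FPKM in the sham libraries (log2 difference 3.36 ± 0.68 (SE), adjusted p = 4.12e-04). Trp63, the transcription factor of basal epithelial cells, had 2.27, 1.95, 1.22 and 1.94 FPKM with UUO and 0.074, 0.494 and 0.0544 FPKM with sham surgery (log2 difference 1.24 ± 0.24 (SE), adjusted p = 2.55e-04). The sham libraries were uneven, with sham library 1 highest in each of these genes, but all sham values stayed below all UUO values. The list mean was 4.62, 4.68, 4.70 and 4.65 in the UUO libraries and 1.37, 2.74 and 1.83 in the sham libraries. The summed level of all 10 members ran from 335 to 404 FPKM in UUO libraries and from 25.2 to 74.1 FPKM in sham libraries. How much pelvic lining was taken with each kidney is not given in the labels.

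Fibrillar collagens and the genes of their assembly rose in 17 of 20 tested members and none fell (median 2.36). Of all tested genes 29.7% rose. Col1a1, a chain of type I collagen, had 193, 214, 236 and 138 FPKM in UUO kidneys, against 4.78, 7.99 and 7.21 FPKM in sham kidneys (log2 difference 4.68 ± 0.41 (SE), adjusted p = 5.23e-08). Col3a1, the chain of type III collagen, had 189, 186, 193 and 134 FPKM in the UUO libraries and 5.94, 8.09 and 7.06 FPKM in the sham libraries (log2 difference 4.45 ± 0.40 (SE), adjusted p = 8.24e-08). In both, and in Col1a2 (log2 difference 3.96) and the fibril-nucleating Col5a1 (3.16), UUO library 3 was the lowest UUO library and still far above sham. The members that did not pass were Col14a1 (0.60, adjusted p = 0.129, and 0.00318 in a fit of the 7 libraries alone), the procollagen cleavage enhancer Pcolce (0.28, adjusted p = 0.408) and the lysyl hydroxylase Plod2 (0.22, adjusted p = 0.415).

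Matricellular and elastic matrix genes rose in 20 of 22 tested members (median 2.46). Fn1, encoding fibronectin, had 78.9, 85.4, 67.2 and 56.8 FPKM in UUO kidneys, against 6.83, 9.08 and 6.46 FPKM in sham kidneys (log2 difference 3.11 ± 0.39 (SE), adjusted p = 3.18e-06). Tnc, encoding tenascin C of provisional matrix, had 36.8, 37.9, 27.5 and 24.1 FPKM in the UUO libraries and 1.33, 1.52 and 1.44 FPKM in the sham libraries (log2 difference 3.72 ± 0.43 (SE), adjusted p = 1.28e-06). Mfap4 and Thbs2 rose by 3.80 and 3.54 on the log2 scale. UUO values of these 4 genes lay above all sham values. Basement membrane genes divided, with 10 higher and 2 lower of 18 tested (median 0.77), beside 29.7% and 25.8% of all tested genes. Col4a1, a chain of the ubiquitous type IV collagen network, had 172, 189.7, 181 and 145 FPKM with UUO and 39.3, 41.95 and 47.04 FPKM with sham surgery (log2 difference 1.98 ± 0.17 (SE), adjusted p = 4.11e-08). Col4a2, its partner, rose by 1.96. Col4a3, a chain of the network found in the glomerular basement membrane, had 13.04, 11.6, 12.2 and 13.4 FPKM in UUO kidneys, against 31.9, 31.2 and 26.7 FPKM in sham kidneys (log2 difference -1.19 ± 0.18 (SE), adjusted p = 2.58e-05). Its partner Col4a4 fell by 1.41. Col4a1 and Col4a2 were thus higher, and Col4a3 and Col4a4 lower, in every UUO library than in any sham library. Col4a5, another type IV collagen chain in the list, was not among the 2 members that fell.

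Myofibroblast and pericyte genes rose in 15 of 19 tested members and none fell (median 1.52), where 29.7% of all tested genes rose. Contractile genes were among those that did not pass. Thy1, a surface protein of fibroblasts, had 144, 159, 151 and 88.7 FPKM in UUO kidneys, against 3.56, 5.39 and 2.42 FPKM in sham kidneys (log2 difference 4.84 ± 0.40 (SE), adjusted p = 2.97e-08). Vim, encoding the intermediate filament vimentin, had 494, 526, 446 and 405 FPKM in the UUO libraries and 72.5, 73.4 and 74.4 FPKM in the sham libraries (log2 difference 2.65 ± 0.28 (SE), adjusted p = 5.36e-07). Acta2, the smooth muscle actin gene by which myofibroblasts are usually defined, had 147, 143, 138 and 73.7 FPKM with UUO and 70.4, 50.9 and 63.6 FPKM with sham surgery (log2 difference 0.97 ± 0.52 (SE), adjusted p = 0.122). UUO libraries 0 to 2 were well above sham and library 3 just above the highest sham value. A fit of the 7 libraries without the UNC569 libraries gave an adjusted p of 0.00735. Myl9, a myosin light chain of contractile cells, had 237, 303, 217 and 138 FPKM in the UUO libraries and 185, 188 and 220 FPKM in the sham libraries and overlapping groups (log2 difference 0.13 ± 0.43 (SE), adjusted p = 0.818). Actg2, the smooth muscle γ-actin of viscera, had 20.9, 25.4, 16.99 and 6.85 FPKM in UUO kidneys, against 0.562, 1.42 and 1.02 FPKM in sham kidneys (log2 difference 3.10 ± 0.66 (SE), adjusted p = 6.40e-04). Myh11, a myosin heavy chain of mature smooth muscle, did not pass (-0.06, adjusted p = 0.852). UUO library 3 was the lowest UUO library in Acta2, Myl9, Actg2 and Myh11.

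In the TGF-β and BMP list 16 rose and 2 fell of 22 tested (median 0.95), beside 29.7% and 25.8% of all tested genes. Tgfb1, the ligand gene central to fibrosis, had 62.0, 76.4, 81.5 and 61.2 FPKM in UUO kidneys, against 7.51, 14.03 and 10.6 FPKM in sham kidneys (log2 difference 2.63 ± 0.23 (SE), adjusted p = 4.82e-08). The receptor gene Tgfbr2 rose by 1.96. Bmp7, a tubule-derived ligand of the opposing BMP arm, had 7.47, 7.97, 6.48 and 6.02 FPKM with UUO and 16.9, 19.1 and 22.1 FPKM with sham surgery (log2 difference -1.35 ± 0.18 (SE), adjusted p = 5.27e-06). Tgfb1 in UUO lay above, and Bmp7 below, all sham values. Of the BMP target genes Id3 rose (1.94), Id2 fell (-0.66, adjusted p = 0.0268, but not without sham library 0, at 0.188, sham library 2, at 0.0529, UUO library 1, at 0.0635, or UUO library 2, at 0.0807) and Id1 did not pass (-0.42, adjusted p = 0.125, and 0.0471 without sham library 1). Among matrix proteases and their inhibitors 15 rose and 1 fell of 18 tested (median 2.08). Mmp14, the membrane-bound collagenase, had 84.3, 119, 114 and 89.7 FPKM in UUO kidneys, against 5.05, 7.55 and 6.30 FPKM in sham kidneys (log2 difference 3.81 ± 0.26 (SE), adjusted p = 4.76e-09). The inhibitor genes went opposite ways. Timp3 had 151, 123, 124 and 130 FPKM in the UUO libraries and 566, 359.7 and 465 FPKM in the sham libraries (log2 difference -1.79 ± 0.18 (SE), adjusted p = 2.19e-07). Timp1 was listed at 0 in all 3 sham libraries and at 21.2, 16.0, 11.9 and 6.41 FPKM in UUO libraries. In counts of the series' knockout experiment, Timp1 had 64.7, 64.8, 21.1 and 97.5 CPM in UUO wild-type kidneys, against 0.122, 0, 21.1 and 0.402 CPM in sham wild-type kidneys.

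**Figure D3:**
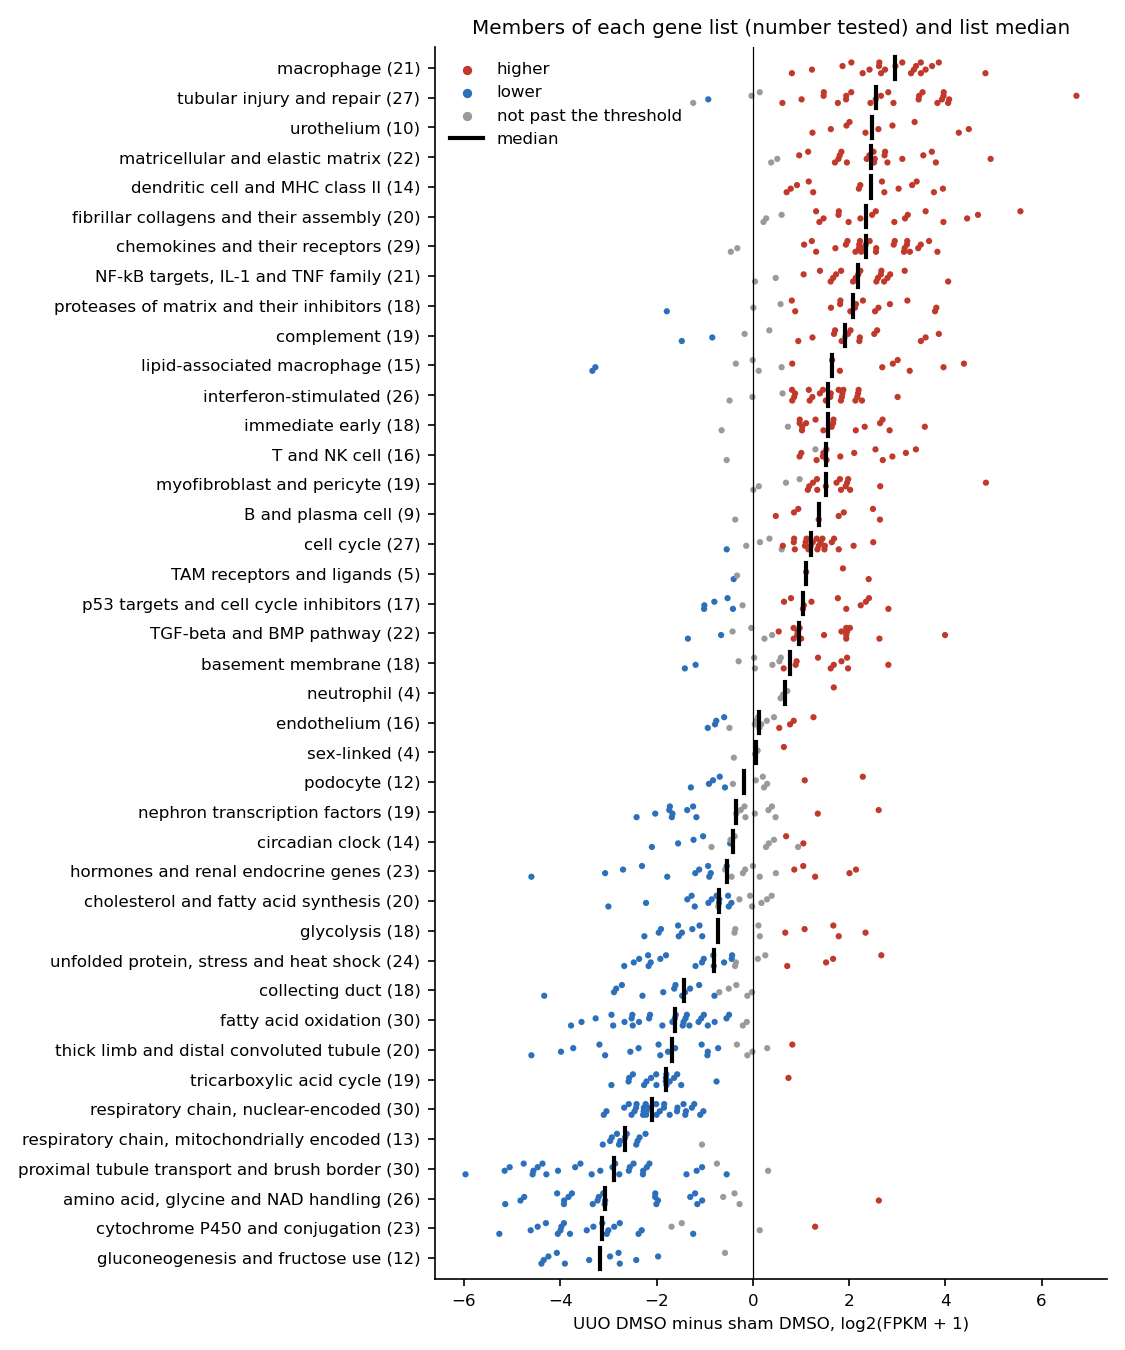
Log2 differences, UUO DMSO minus sham DMSO on log2(FPKM + 1), of the tested members of the gene lists. The adipocyte, hepatocyte, adrenal cortex, muscle and red cell lists are left out, and the sex-linked check genes are kept. Each point is a gene, red if higher, blue if lower and grey if not past the threshold, and black bars are list medians. Lists are ordered from macrophage genes, with a median of 2.96, to gluconeogenesis and fructose use, with a median of -3.18.

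The TAM receptors, whose ligands Gas6 and protein S bridge them to dying cells, did not move as 1 family in the vehicle arm. Of the 5 receptor and ligand genes 3 rose and 1 fell, where 29.7% of all tested genes rose and 25.8% fell. Axl had 62.4, 59.2, 74.4 and 76.9 FPKM in UUO kidneys, against 11.1, 15.2 and 10.1 FPKM in sham kidneys (log2 difference 2.41 ± 0.24 (SE), adjusted p = 2.51e-07). Tyro3 had 3.87, 5.56, 5.43 and 4.44 FPKM in the UUO libraries and 1.28, 2.37 and 1.501 FPKM in the sham libraries (log2 difference 1.11 ± 0.19 (SE), adjusted p = 7.49e-05). Mertk, the target of the inhibitor used elsewhere in the series, had 8.96, 8.80, 10.9 and 12.1 FPKM with UUO and 14.2, 14.4 and 10.5 FPKM with sham surgery, with overlapping groups (log2 difference -0.33 ± 0.18 (SE), adjusted p = 0.135). The ligand gene Pros1, for protein S, rose by 1.87, and Gas6 had 146, 144, 114 and 119.8 FPKM in the UUO libraries and 159.5, 161 and 197 FPKM in the sham libraries (log2 difference -0.40 ± 0.14 (SE), adjusted p = 0.0202). Axl, Tyro3 and Pros1 in UUO lay above every sham library and Gas6 below. The call of Gas6 was lost without sham library 2 (adjusted p = 0.114), UUO library 2 (0.0612) or UUO library 3 (0.0539).

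Macrophage genes rose in 21 of 21 tested members (median 2.96), the highest median of any list, where 29.7% of all tested genes rose. C1qa, a chain of complement C1q made by tissue macrophages, had 602, 634, 822 and 735 FPKM in UUO kidneys, against 46.9, 59.9 and 64.5 FPKM in sham kidneys (log2 difference 3.59 ± 0.22 (SE), adjusted p = 1.66e-09). Cd14, a co-receptor for bacterial lipopolysaccharide, had 120, 114, 122 and 129 FPKM in the UUO libraries and 8.47, 10.2 and 6.46 FPKM in the sham libraries (log2 difference 3.73 ± 0.13 (SE), adjusted p = 5.12e-12). Adgre1, which encodes the mouse macrophage marker F4/80, had 5.25, 5.94, 9.51 and 7.48 FPKM with UUO and 0.394, 0.616 and 0.403 FPKM with sham surgery (log2 difference 2.43 ± 0.19 (SE), adjusted p = 1.64e-08). Cd68, a lysosomal marker, had 20.8, 24.1, 29.5 and 34.8 FPKM in the UUO libraries and 2.80, 5.91 and 2.21 FPKM in the sham libraries (log2 difference 2.67 ± 0.26 (SE), adjusted p = 2.19e-07). All were without overlap. Csf1r, the receptor for the macrophage growth factors, rose least, by 0.81. The list mean was 5.57, 5.55, 5.91 and 5.98 in the UUO libraries and 2.80, 3.01 and 2.82 in the sham libraries, with UUO libraries 2 and 3 the highest. The same libraries were lowest in proximal tubule genes. Lipid-associated macrophage genes gave 9 rises and 2 falls among 15 tested (median 1.65), beside 29.7% and 25.8% of all tested genes. Ctss, a lysosomal protease of antigen-presenting cells, had 73.3, 83.6, 114 and 129 FPKM in UUO kidneys, against 3.68, 3.36 and 4.10 FPKM in sham kidneys (log2 difference 4.39 ± 0.23 (SE), adjusted p = 3.05e-10). Lpl, lipoprotein lipase, had 33.2, 34.05, 29.9 and 54.8 FPKM in the UUO libraries and 478, 304 and 335 FPKM in the sham libraries (log2 difference -3.27 ± 0.25 (SE), adjusted p = 1.58e-08). Cd36, a fatty acid transporter, fell by 3.33. Lpl and Cd36 are also made by tubule and capillary cells. Msr1, a scavenger receptor gene of macrophages, was listed at 0 in all 7 libraries, whereas the knockout experiment's UUO wild-type kidneys had 7.53 to 10.4 CPM of it. A listed 0 is not read here as absence.

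Lymphocyte and antigen presentation genes were also higher in UUO kidneys, at low levels for the lymphocyte receptors. T and NK cell genes rose in 14 of 16 tested members (median 1.53), where 29.7% of all tested genes rose. Cd4, the co-receptor of helper T cells, had 7.76, 8.02, 8.83 and 9.52 FPKM in UUO kidneys, against 0.597, 0.453 and 0.346 FPKM in sham kidneys (log2 difference 2.70 ± 0.17 (SE), adjusted p = 2.01e-09). Foxp3, the factor of regulatory T cells, had 3.19, 2.93, 4.27 and 3.76 FPKM in the UUO libraries and 4.63, 5.05 and 7.31 FPKM in the sham libraries and did not pass (log2 difference -0.54 ± 0.28 (SE), adjusted p = 0.116). Its UUO values lay below all sham values, and it passed as lower in a fit of the 7 libraries alone (adjusted p = 0.0328). The T and NK list mean was 2.23, 2.22, 2.74 and 2.75 in the UUO libraries and 0.48, 0.78 and 0.81 in the sham libraries, again with UUO libraries 2 and 3 highest. B and plasma cell genes rose in 8 of 9 tested members (median 1.37), led by Ighm. This immunoglobulin μ chain gene had 40.6, 35.5, 37.4 and 43.1 FPKM with UUO and 3.53, 7.72 and 5.68 FPKM with sham surgery (log2 difference 2.64 ± 0.20 (SE), adjusted p = 1.51e-08). Dendritic cell and MHC class II genes rose in 14 of 14 tested (median 2.46). H2-Ab1, a class II chain, had 978, 1193, 1537 and 1502 FPKM in UUO kidneys, against 81.0, 148 and 144 FPKM in sham kidneys (log2 difference 3.40 ± 0.23 (SE), adjusted p = 3.74e-09). Neither Cd4, Ighm nor H2-Ab1 overlapped between groups. Neutrophil genes were near the limit of the table: 4 of 14 were tested, and Csf3r, the receptor for granulocyte growth factor, was the 1 that rose. S100a8, a calcium-binding alarmin, had 1.18, 0.735, 2.65 and 1.77 FPKM in the UUO libraries and 0, 0 and 2.46 FPKM in the sham libraries (adjusted p = 0.223, and 0.0303 without sham library 2). Ly6g, Mpo, Elane, Camp and Retnlg were listed at 0 in all 7 libraries.

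**Figure D4:**
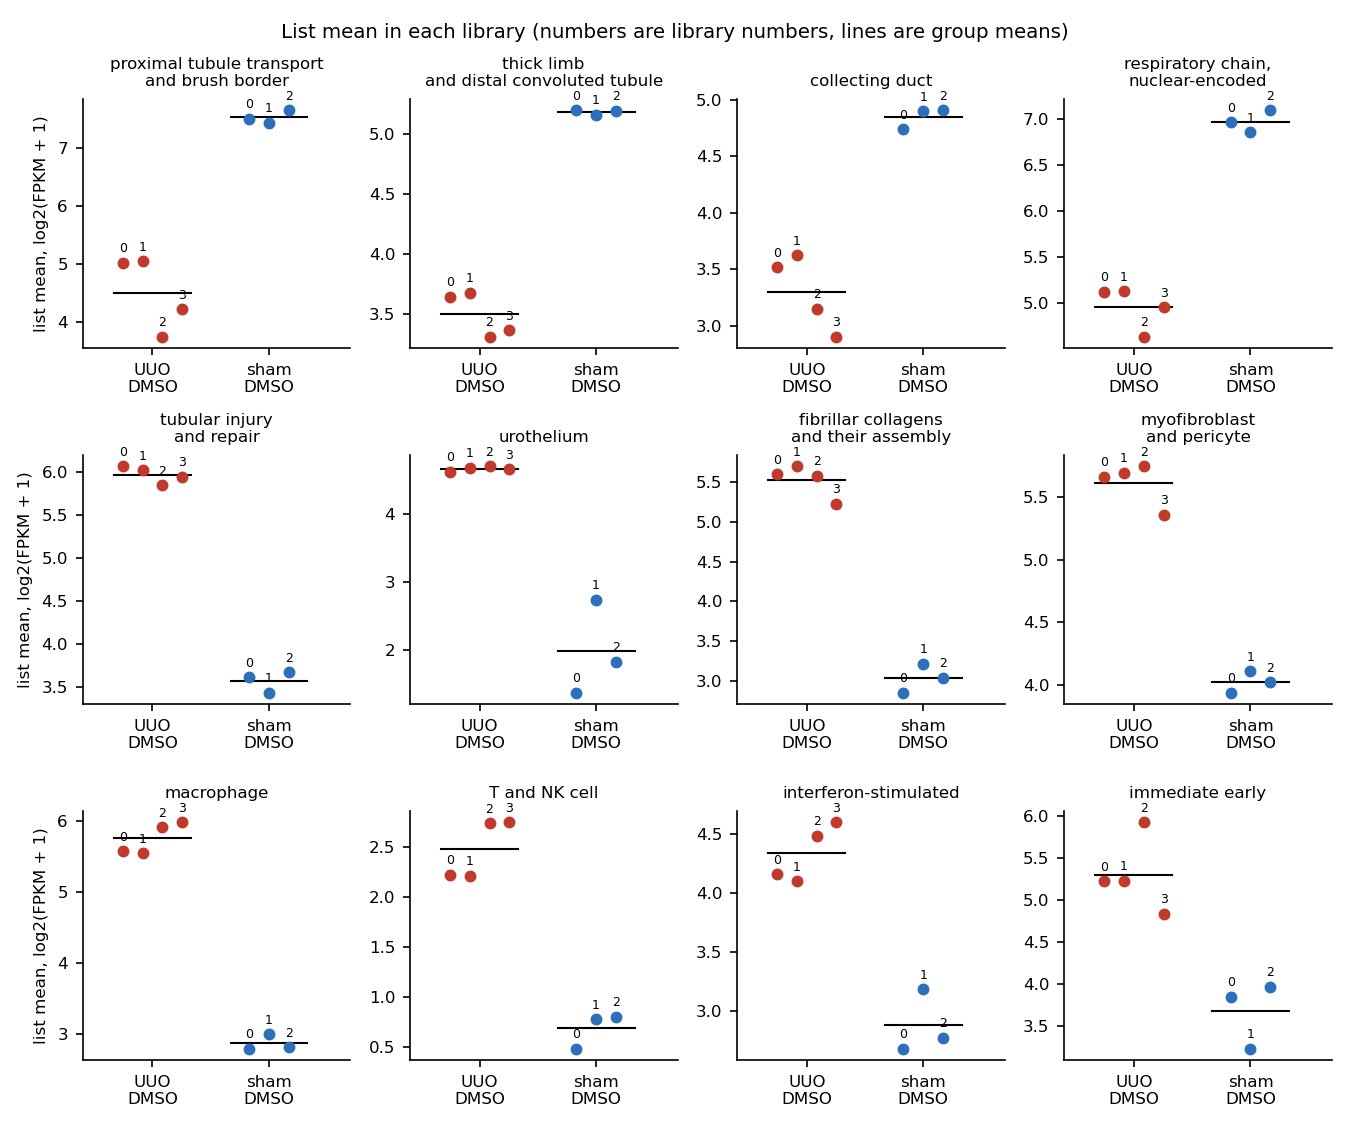
Mean log2(FPKM + 1) of the tested members of 12 gene lists in each library, with UUO DMSO at left in red, sham DMSO at right in blue, library numbers above the points and group means as lines. Axes do not start at 0. UUO libraries 2 and 3 are the lowest in proximal tubule genes (3.75 and 4.22) and the highest in macrophage genes (5.91 and 5.98).

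Chemokines and their receptors rose in 27 of 29 tested members (median 2.35). Ccl2, the ligand that recruits monocytes, had 24.1, 24.3, 14.6 and 40.5 FPKM in UUO kidneys, against 0.572, 1.38 and 0.49 FPKM in sham kidneys (log2 difference 3.84 ± 0.39 (SE), adjusted p = 2.79e-07). Its receptor Ccr2 had 28.03, 19.3, 27.2 and 42.7 FPKM in the UUO libraries and 1.78, 1.69 and 1.34 FPKM in the sham libraries (log2 difference 3.49 ± 0.26 (SE), adjusted p = 1.26e-08). Both were wholly separate between groups. The 2 members that did not pass were the homeostatic chemokines Cxcl12 (-0.32, adjusted p = 0.607) and Ccl21a (-0.46, adjusted p = 0.438). NF-κB targets and genes of the IL-1 and TNF families rose in 19 of 21 tested members (median 2.19), where 29.7% of all genes did. Tnfaip3, a feedback inhibitor of the pathway, had 10.5, 10.2, 12.2 and 13.4 FPKM with UUO and 1.42, 1.48 and 2.13 FPKM with sham surgery (log2 difference 2.23 ± 0.17 (SE), adjusted p = 1.46e-08). Il1rn, the IL-1 receptor antagonist, with a log2 difference of 3.16. Complement genes gave 14 rises and 2 falls of 19 tested (median 1.91), beside 29.7% and 25.8% of all tested genes. The receptors C3ar1 (2.52) and C5ar1 (2.58) rose. Cfb, factor B of the alternative pathway, had 22.5, 28.7, 11.5 and 29.2 FPKM in the UUO libraries and 41.5, 68.4 and 83.9 FPKM in the sham libraries (log2 difference -1.47 ± 0.40 (SE), adjusted p = 0.00438). C2, the classical pathway component, fell by 0.84 (adjusted p = 0.0319). The call of C2 was lost without sham library 0 (0.067), sham library 1 (0.0982), UUO library 2 (0.08) or UUO library 3 (0.078).

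Interferon-stimulated genes rose in 23 of 26 tested members (median 1.56), where 29.7% of all tested genes rose. Gbp2, a GTPase of cell-autonomous defence induced mostly by interferon γ, had 19.996, 19.03, 42.6 and 52.5 FPKM in UUO kidneys, against 3.03, 3.78 and 2.10 FPKM in sham kidneys (log2 difference 3.01 ± 0.31 (SE), adjusted p = 3.23e-07). Bst2, the virus-tethering protein tetherin, had 86.0, 101, 103 and 102 FPKM in the UUO libraries and 22.8, 31.6 and 26.7 FPKM in the sham libraries (log2 difference 1.83 ± 0.19 (SE), adjusted p = 3.99e-07). UUO libraries 2 and 3 were the highest in Gbp2 and in the list mean, which was 4.16, 4.10, 4.49 and 4.60 in the UUO libraries and 2.68, 3.19 and 2.78 in the sham libraries. Rsad2, encoding the antiviral enzyme viperin and typical of type I interferon, had 8.07, 6.83, 9.99 and 9.98 FPKM with UUO and 13.98, 12.9 and 10.6 FPKM with sham surgery and did not pass (log2 difference -0.48 ± 0.22 (SE), adjusted p = 0.0754). Ifi44 and Oas1a did not pass either (adjusted p = 0.985 and 0.0753). Oas1a passed as higher without sham library 1 (adjusted p = 0.0321) and in a fit of the 7 libraries alone (0.032), and Rsad2 passed as lower in that fit (0.0367) and after median-of-ratios scaling (0.0394).

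Promoter sequence gave a description of the inflammatory and protease lists that did not use the expression values. For these lists the 250 bases upstream of the annotated starts, from RefSeq on GRCm38.p6, were searched on both strands for 3 motifs: an interferon-stimulated response element made of 2 copies of GAAA with 2 free bases between them, a κB site made of GGGA, TT and CC with 1 free base between each, and the AP-1 site TGAGTCA. The response element was found in 10 of 19 interferon-list members with a promoter in the table (52.6%), and in 3.46% of 27025 genes. Of those 10 members 8 rose, beside 23 of 26 tested members of the whole list. The κB site was found in 4 of 20 members of the NF-κB list (20%) and in 3 of 23 chemokine members (13.0%: Cxcl1, Cxcl2 and Cxcl10), against 1.13% of all genes. TGAGTCA was found in 6 of 14 protease-list members (42.9%), of which 4 rose, against 5.16% of all genes. The lists were drawn up from knowledge of the same pathways, so they are not independent of these motifs. A match is a description, not a site in use or a cause. 4 promoters of genes that rose are shown 5′ to 3′ on the strand of the gene, ending at the base before the start, because each holds 1 or more of the first 3 motifs in capitals. They were chosen after their values were seen. Gbp2 (chr3:142620413-142620662, plus strand) holds TGAGTCA from 102 to 96 bases and, on the other strand, the response element from 59 to 50 bases before the start. Cxcl10 (chr5:92348890-92349139, minus strand), encoding a T cell-attracting chemokine with 39.9, 36.7, 69.0 and 74.8 FPKM in the UUO libraries and 3.26, 7.18 and 5.38 FPKM in the sham libraries, holds the response element from 213 to 204, the κB site from 103 to 94 and TGAGTCA from 74 to 68 bases before the start. Nfkb2 (chr19:46304487-46304736, plus strand), encoding an NF-κB subunit with 8.21, 9.87, 8.02 and 7.87 FPKM with UUO and 1.91, 2.05 and 1.61 FPKM with sham surgery, holds the κB site from 39 to 30 bases before the start. Mmp12 (chr9:7347124-7347373, plus strand), the macrophage elastase gene with 5.35, 4.89, 7.16 and 12.6 FPKM in the UUO libraries and 0.179, 0.171 and 0 FPKM in the sham libraries, holds TGAGTCA from 44 to 38 bases before the start. The motifs do not overlap one another in these windows, and UUO values of these genes were above all sham values.
Gbp2: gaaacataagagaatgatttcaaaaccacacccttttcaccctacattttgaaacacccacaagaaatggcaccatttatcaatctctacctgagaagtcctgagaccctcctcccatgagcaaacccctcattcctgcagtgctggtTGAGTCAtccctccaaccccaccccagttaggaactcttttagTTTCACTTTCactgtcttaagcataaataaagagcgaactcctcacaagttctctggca
Cxcl10: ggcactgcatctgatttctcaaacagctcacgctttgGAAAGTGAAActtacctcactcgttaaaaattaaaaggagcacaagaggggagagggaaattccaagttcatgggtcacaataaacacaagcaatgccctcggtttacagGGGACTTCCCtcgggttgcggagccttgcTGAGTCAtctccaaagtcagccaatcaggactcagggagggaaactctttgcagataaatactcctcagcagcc
Nfkb2: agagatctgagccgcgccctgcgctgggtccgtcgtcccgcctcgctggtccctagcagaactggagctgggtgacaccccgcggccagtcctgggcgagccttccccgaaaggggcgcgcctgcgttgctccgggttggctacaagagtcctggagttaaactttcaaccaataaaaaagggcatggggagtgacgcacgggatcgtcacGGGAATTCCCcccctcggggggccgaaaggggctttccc
Mmp12: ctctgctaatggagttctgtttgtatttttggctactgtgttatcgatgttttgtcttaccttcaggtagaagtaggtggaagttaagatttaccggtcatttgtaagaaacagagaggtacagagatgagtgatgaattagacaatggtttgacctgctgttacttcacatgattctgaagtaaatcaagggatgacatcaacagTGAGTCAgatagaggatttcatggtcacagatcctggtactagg

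Cell cycle genes rose in 22 of 27 tested members and fell in 1 (median 1.20), at low levels. Top2a, the topoisomerase of dividing cells, had 11.03, 10.4, 8.83 and 9.77 FPKM in UUO kidneys, against 2.00, 0.791 and 0.358 FPKM in sham kidneys (log2 difference 2.50 ± 0.28 (SE), adjusted p = 7.74e-07). Mki67, the proliferation marker Ki-67, had 4.66, 4.19, 2.81 and 5.75 FPKM in the UUO libraries and 0.516, 0.822 and 0.556 FPKM in the sham libraries (log2 difference 1.69 ± 0.24 (SE), adjusted p = 1.38e-05). Ccnd1, encoding cyclin D1, was the member that fell, with 50.4, 45.3, 38.9 and 44.8 FPKM with UUO and 73.8, 51.2 and 74.1 FPKM with sham surgery (log2 difference -0.54 ± 0.15 (SE), adjusted p = 0.00543). Top2a and Mki67 were higher in every UUO library than in any sham library. Targets of p53 and cell cycle inhibitors went both ways, with 11 higher and 5 lower of 17 tested, beside 29.7% and 25.8% of all tested genes. Cdkn1a, the cell cycle inhibitor p21, had 43.1, 42.4, 56.3 and 45.8 FPKM in UUO kidneys, against 17.4, 8.16 and 15.2 FPKM in sham kidneys (log2 difference 1.77 ± 0.25 (SE), adjusted p = 9.78e-06). Gadd45b, a stress sensor, rose by 2.82, whereas the p53 targets Bax, Sesn2 and Ccng1 had log2 differences of -0.80, -1.01 and -1.01.

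Unfolded protein, antioxidant and heat shock genes fell in 16 and rose in 4 of 24 tested members (median -0.82). Of all tested genes 25.8% fell and 29.7% rose. Herpud1, a factor of protein disposal from the endoplasmic reticulum, had 61.1, 69.7, 70.0 and 71.5 FPKM in UUO kidneys, against 423, 263 and 500.5 FPKM in sham kidneys (log2 difference -2.47 ± 0.24 (SE), adjusted p = 1.94e-07). Hsph1, a co-chaperone of the heat shock response, had 10.2, 10.6, 7.34 and 11.2 FPKM in the UUO libraries and 77.0, 49.9 and 79.2 FPKM in the sham libraries (log2 difference -2.67 ± 0.18 (SE), adjusted p = 4.63e-09). Sham library 1 was the lowest sham library in both, and all sham values were above all UUO values. Mt2, a metallothionein, and the small heat shock gene Hspb1 rose. Hspb1 had 454, 422, 557 and 437 FPKM with UUO and 155, 126 and 213 FPKM with sham surgery (log2 difference 1.52 ± 0.15 (SE), adjusted p = 2.05e-07). Immediate early genes, which respond to stimuli within minutes and also to tissue handling, rose in 16 of 18 tested members (median 1.55). Klf6, a zinc finger factor, had 54.5, 38.3, 65.5 and 52.9 FPKM in the UUO libraries and 9.34, 4.94 and 5.51 FPKM in the sham libraries (log2 difference 2.84 ± 0.22 (SE), adjusted p = 1.47e-08). Nr4a1, an orphan nuclear receptor, had 35.1, 34.7, 128 and 10.6 FPKM in UUO kidneys, against 13.5, 4.49 and 18.9 FPKM in sham kidneys (log2 difference 1.68 ± 0.66 (SE), adjusted p = 0.0402). UUO library 2 was several times higher than the rest and UUO library 3 lay within the sham range. The call was lost without sham library 0 (0.0573), sham library 1 (0.202) or UUO library 0 (0.0621), 1 (0.0604) or 2 (0.144). The list mean was 5.22, 5.22, 5.92 and 4.83 in the UUO libraries and 3.84, 3.23 and 3.97 in the sham libraries, highest in UUO library 2.

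Cholesterol and fatty acid synthesis fell in 13 of 20 tested members and none rose (median -0.70), where 25.8% of all tested genes fell. Hmgcs1, an early enzyme of the mevalonate pathway, had 43.3, 35.6, 24.9 and 38.5 FPKM in UUO kidneys, against 210.4, 132 and 165 FPKM in sham kidneys (log2 difference -2.22 ± 0.22 (SE), adjusted p = 1.99e-07). Cyp51, the lanosterol demethylase, had a log2 difference of -3.00. Srebf1, the factor of fatty acid synthesis, did not pass (0.18, adjusted p = 0.391). Circadian clock genes gave 2 rises and 5 falls of 14 tested, where 29.7% of all tested genes rose and 25.8% fell. Per2, a repressor of the clock, had 3.07, 2.72, 1.98 and 2.65 FPKM in the UUO libraries and 9.02, 9.14 and 10.4 FPKM in the sham libraries (log2 difference -1.55 ± 0.35 (SE), adjusted p = 0.00103). Nr1d1, encoding the repressor REV-ERBα, had 44.7, 47.9, 36.9 and 38.9 FPKM with UUO and 24.3, 23.1 and 29.6 FPKM with sham surgery (log2 difference 0.69 ± 0.19 (SE), adjusted p = 0.00588), both without overlap. The hour at which tissue was taken is not given in the labels. Clock itself was listed at 0 in all 7 libraries, although the knockout experiment's wild-type kidneys held 45.4 to 140 CPM of it, which marks such a 0 as a possible failed estimate.

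Lists of other tissues were uneven among libraries. Hepatocyte genes fell in 8 of 9 tested members (median -2.28), where 25.8% of all tested genes fell. Alb and Apoa1, however, were high in sham libraries 0 and 2 only. Apoa1, the main protein of high-density lipoprotein, had 1.90, 1.00, 1.92 and 4.53 FPKM in UUO kidneys, against 130.4, 4.98 and 162 FPKM in sham kidneys. The summed level of all 10 hepatocyte genes was 11.2 to 33.6 FPKM in UUO libraries and 301, 82.6 and 350.1 FPKM in sham libraries. Ttr, the thyroid hormone carrier, was high in all 3 sham libraries, with 0.134, 0.972, 0 and 0.554 FPKM in the UUO libraries and 20.4, 16.1 and 35.6 FPKM in the sham libraries (log2 difference -4.12 ± 0.27 (SE), adjusted p = 3.54e-09). In the adipocyte list Pparg alone rose of 7 tested. Cfd, the adipocyte-made complement factor D, had 5.26, 8.23, 13.2 and 97.2 FPKM with UUO and 0.617, 39.1 and 0.383 FPKM with sham surgery (log2 difference 1.91 ± 1.14 (SE), adjusted p = 0.167, and 0.0104 without sham library 1). The 9 adipocyte genes summed to 76.1 to 88.7 FPKM in UUO libraries 0 to 2 and 219 FPKM in UUO library 3, and to 45.99, 138 and 51.8 FPKM in sham libraries. The part of these tissues in the other results was not tested. Counts without sham library 1 and UUO library 3, given above, leave out the libraries with the most adipocyte transcripts. They keep sham libraries 0 and 2, which held the most hepatocyte transcripts, so they do not bear on those. Red cell genes fell in 5 of 6 tested members (median -1.67), of which Slc4a1 is also a collecting duct gene, and their summed level was 169 to 251 FPKM in UUO libraries and 540.3 to 1440.1 FPKM in sham libraries. Of 3 tested adrenal cortex genes the mitochondrial electron carrier Fdx1, which tubule cells also express, fell, and the defining Cyp11b2 was listed at 0 in all libraries. The Y-linked genes Kdm5d, Uty, Eif2s3y and Ddx3y were present in each library and Xist was at 0.0301 FPKM or less.

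**Figure D5:**
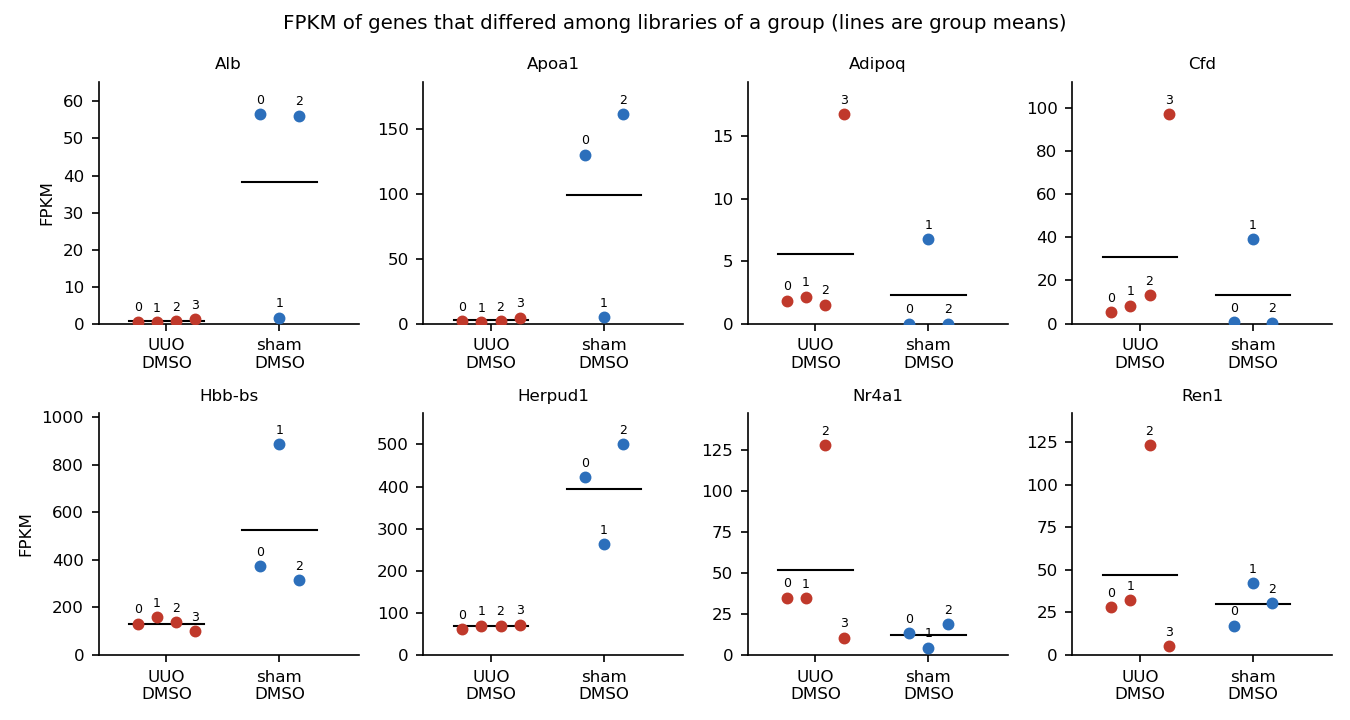
FPKM of 8 genes that differed among libraries of a group, on linear axes from 0, with UUO DMSO at left in red, sham DMSO at right in blue and group means as lines. Alb and Apoa1 are high in sham libraries 0 and 2, Adipoq and Cfd in UUO library 3 and sham library 1, Hbb-bs in sham library 1, and Nr4a1 and Ren1 in UUO library 2, while Herpud1 is lowest of the sham libraries in library 1.

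Kidneys of the series' knockout experiment gave the same direction for most genes. They were 4 UUO and 4 sham wild-type kidneys measured as read counts, and their labels name no injection. Of 4168 genes called higher here with enough reads there, 88.0% were also higher in UUO wild-type kidneys, where 54.3% of all tested genes were higher, and of 3637 called lower, 81.7% were lower, where 45.7% of all were. The labels mark a faulty read file for 4 of those 8 libraries, and reads outside genes made up 20.8 to 67.6%. 1 sham library of that experiment held liver-like transcripts and 1 UUO library adipose-like transcripts, and without both the shares were 92.8% and 82.7%. The list medians there, without those 2 libraries, were -3.00 for proximal tubule, 3.72 for macrophage, 2.13 for fibrillar collagen, 2.95 for urothelial and 2.72 for injury genes on log2 CPM. The unfolded protein and heat shock list, at -0.82 here, had a median of 0.11 there without those libraries and -0.68 with them. The podocyte and endothelium lists, at -0.17 and 0.12 here, had medians of 0.84 and 1.03. No test was run on these values, since the experiments were separate and in different units.

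The response to obstruction in the DMSO arm was also set against that in the UNC569 arm, with 7 UUO and 3 sham libraries, by a test of the difference between the responses in the same fit. The UNC569 response minus the DMSO response differed in 3000 of 15338 genes (19.6%), of which 947 (6.17%) were higher and 2053 (13.4%) lower, at a limma adjusted p under 0.05. The median difference over all genes was -0.13, and after median-of-ratios scaling, which moved that median to 0.03, 1614 genes were higher and 1329 lower, so the direction of the balance depends on scaling. Without sham library 1 the count was 1963. Hspb1 had the smallest p. Its level was 511 to 605 FPKM in UUO UNC569 kidneys and 24.2 to 27.4 FPKM in sham UNC569 kidneys, against 454, 422, 557 and 437 FPKM in the UUO libraries and 155, 126 and 213 FPKM in the sham libraries in the DMSO arm, a response larger by 2.89 ± 0.20 (SE, adjusted p = 7.22e-07). The sham UNC569 libraries held a fraction of the Hspb1 level of the sham DMSO libraries. Hsph1 had 11.2 to 16.3 FPKM in UUO UNC569 kidneys and 17.6 to 24.4 FPKM in sham UNC569 kidneys, against 10.2, 10.6, 7.34 and 11.2 FPKM in the UUO libraries and 77.0, 49.9 and 79.2 FPKM in the sham libraries in the DMSO arm. It was thus lower with UUO in each arm, and its fall was smaller with UNC569, the difference being 2.20 ± 0.25 (SE, adjusted p = 1.59e-04). Of the 24 stress list members tested, 10 had a positive difference past the threshold, which can be a larger rise or a smaller fall with UNC569. Cmtm6, a membrane protein that protects PD-L1 from breakdown, had 27.6 to 31.3 FPKM in UUO UNC569 kidneys and 125 to 144 FPKM in sham UNC569 kidneys, the response minus that in the DMSO arm being -1.45 ± 0.16 (SE, adjusted p = 1.59e-04). Zbtb7a, a transcriptional repressor, and Rab43, a small GTPase, were the other 2 of the 5 smallest p-values, with differences of -1.40 and -1.58.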

How the data were processed

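The kidney table held FPKM made by the authors, and the tool that made those FPKM is not given in the sources used here. Libraries were made with TruSeq kits per the labels' protocols, and FastQC, Trim Galore, STAR and edgeR, with mm10 and hg38, are named in the submitters' processing notes. The values are not whole multiples of 1 read, so no reads were recovered. Of 38277 gene identifiers 36342 (94.9%) matched the annotation by Ensembl ID.

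Genes with at least 1 FPKM in 3 or more of 17 kidney libraries (UUO and sham, with DMSO or UNC569) were fitted in 1 model on log2(FPKM + 1) with limma 3.58.1 (R 4.3.3, intensity trend), adjusted by Benjamini-Hochberg over 15338 genes. Fold changes on this scale understate changes of low genes. On simulated data of 15338 genes, with 100 changed at each size, this fit recovered 62% of 2-fold and 95% of 4-fold changes and made 4 false calls. In the real data 55.5% of tested genes were called, so these shares do not give the recovery there. Groups came from the column names, and no library was pooled or imputed.

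The 46 gene lists, the comparison and its groups were chosen with earlier results of these data known. Genes were named by a rule. It took the 15 largest rises and falls among called genes with at least 10 FPKM in a group and groups that did not overlap. Fixed markers were added. Each list gave its 5 smallest p-values and up to 3 members that went against it or had the largest p. Ehhadh, Slc16a3, Pfkp, mt-Co1, Cxcl10, Nfkb2, genes listed at 0 and those of the sex check were chosen after their values were seen. Some genes that the rule names are not reported here.

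Counts per gene deposited by the authors for the knockout experiment, of 7216322 to 17084813 reads in genes per library, were turned into log2 CPM (edgeR 4.0.16, TMM, prior count 2) and described with no test. Alternatives were another pseudocount, no filter, median-of-ratios scaling, the 7 libraries alone, no trend, a replicate block and leaving out each library. Leaving out sham library 1 with UUO library 3, or the 2 libraries of the knockout experiment, was chosen after seeing the data. Tables were handled with Python 3.11.15 and pandas 2.3.3.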

Additional observations from a re-analysis of the deposited data

Results flagged for a closer look

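Of 363 named genes, 18 had 1 UUO library whose gap to the nearest other UUO library exceeded Dixon's 95% critical share of the range of the 4, which chance gives in about 1 in 20 groups, or in about as many of these genes as were found. The genes are given as values. UUO library 3 was the far one in 10: it had high values of the adipocyte genes Adipoq (16.8 FPKM, against 1.51 to 2.16 FPKM in the other UUO libraries), Cfd (97.2, against 5.26 to 13.2 FPKM) and Cidec (9.27, against 0.684 to 1.66 FPKM), and of Lpl (54.8, against 29.9 to 34.05 FPKM), Slc12a1 (31.8, against 16.5 to 18.4 FPKM), Mmp9 (3.41, against 1.06 to 1.15 FPKM) and Il1rn (13.1, against 8.54 to 9.04 FPKM). The same library had low values of the contractile genes Acta2 (73.7, against 138 to 147 FPKM) and Myh11 (7.07, against 10.5 to 11.2 FPKM), and of Col3a1 (134, against 186 to 193 FPKM).

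UUO library 2 was far above the others in Psca (151, against 84.1 to 91.8 FPKM), Fosb (6.10, against 1.05 to 1.43 FPKM) and Srebf1 (30.4, against 18.02 to 19.95 FPKM). UUO library 0 was apart in 9030619P08Rik (0.871, against 0 to 0.148 FPKM), Plce1 (1.33, against 1.58 to 1.59 FPKM) and Bst2 (86.0, against 101 to 103 FPKM). UUO library 1 was apart in Oasl2 (47.3, against 55.3 to 55.8 FPKM) and in Apoa2 (0.497 FPKM, where the others were listed at 0).

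The response to obstruction differed between the UNC569 and the DMSO arm, by limma's test of the difference itself, for the 5 genes with the smallest p-values: Hspb1 (UNC569 minus DMSO response 2.89 on the log2 scale), Hsph1 (2.20), Cmtm6 (-1.45), Zbtb7a (-1.40) and Rab43 (-1.58).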

How the results depend on the processing

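Between 4006 and 4938 genes were higher, and 3488 and 4183 lower, under every alternative to the main fit, within 1.5 times of 4560 and 3957, with 3891 and 3520 when sham library 1 and UUO library 3 were both left out. The median over all genes moved between 0.04 and 0.10. Over 364 named genes and 14 settings, no gene that passed in the main fit or in the setting changed direction there. Changes of direction in genes that passed in neither were not counted. Under at least 1 setting 24 genes lost their call and 26 gained one. With no filter Nphs1 (adjusted p = 0.0704), C2 (0.0523), Fga (0.0606) and Nr4a1 (0.07) did not pass, with the 7 DMSO libraries alone Fga and Nr4a1 (0.0681 each) did not, and with a pseudocount of 0.1 Vwf did not (0.0577) while Adipoq (0.0469) and S100a8 (0.0288) did. Of the list medians 89 values moved by more than the spread between UUO libraries, or changed sign where the main median was within that spread. That of 3 adrenal cortex genes, beyond that spread in the main fit, reversed. It was -0.86 when the 7 DMSO libraries were fitted alone, against 0.23. The number of genes whose response differed between the UNC569 and DMSO arms, 3000 in the main fit, was 1963 to 3226 when single DMSO libraries were left out, the lowest without sham library 1, and 1445 without sham library 1 and UUO library 3. Median-of-ratios scaling gave 1614 higher and 1329 lower genes, against 947 and 2053. The cause was not tested. Same-numbered libraries correlated at 0.206, 0.054 and 0.028 in their deviations from group means. Libraries with different numbers were not compared, so these values cannot decide whether the numbers pair samples. With a replicate block 4743 genes were higher and 4072 lower, Acta2 (adjusted p = 0.00775), Fbp2 (0.0112), Slc7a9 (0.0322), Rsad2 (0.0349) and Pax2 (0.0434) passed, and Fga (0.0989) and Nphs1 (0.0944) did not. In the knockout experiment the shares of the same direction were 89.5 and 79.7% with no filter and 88.0 and 81.7% with size factors. Depth is unknown for the FPKM libraries, and a gene listed at 0 may be a failed estimate.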
